A study of Mus musculus with 15 samples.

Results

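The activated letter A libraries were 3 of the 9 libraries of mouse splenic naive B cells activated in culture, out of 15 libraries in the series. They were chosen by their titles, which join a stimulus (CD40, CpG or LPS) and a letter, so that the letter A set held 1 library of each titled stimulus. The other 6 activated libraries ended in B or C, again with 1 of each titled stimulus per letter. Gene expression in A was compared with that in B and in C, with the titled stimulus as a block, and a gene was counted only where A differed from both letters in the same direction.

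All cells came from wild-type male mice aged 3 months, 9 days after immunisation with sheep red blood cells, a particulate antigen that starts germinal centres in the spleen. B cells were enriched on magnetic beads and then sorted as naive or germinal centre (GC) cells. For activation, naive cells were kept for 5 days in embryonic stem cell medium based on KO-DMEM, with cytokines and medium given at the start and again on day 3. Doses in the labels are 5 µg/ml of antibody to CD40 with mouse IL-4 at 80 ng/ml, 2 µM of CpG oligonucleotide, and 25 µg/ml of lipopolysaccharide (LPS). Whether cells with CpG or LPS also received IL-4 is unclear from the labels. What the letters stand for is not stated, nor whether the 3 libraries of a letter come from separate animals, pools or cultures, so p-values here measure only the spread between these libraries. The titles were used as given. Libraries of the same letter were more alike than libraries of the same titled stimulus (values below), and whether letter and stimulus stand in the titles as meant cannot be told from the sources used here. If they were exchanged, every difference of A from B and C given here would be one between stimuli.

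CD23, encoded by Fcer2a, is the low-affinity receptor for IgE on mature follicular B cells. Interleukin 4 raises it through the transcription factor STAT6, and it is lost as B cells become GC or plasma cells. Aire is best known from medullary thymic epithelium, where it lets cells transcribe tissue-restricted genes for the deletion of self-reactive T cells, and it has also been described in some B cells. Activated B cells in culture can stay follicular-like, switch their immunoglobulin class, take on GC-like features or start to become plasma cells, and these states differ in cytokine receptors, surface molecules and metabolism.

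The 9 activated libraries held 25397624 to 36272197 counts, with 16314 to 19320 genes detected. The letter accounted for 54.2% of the variance of log2 CPM (counts scaled to library size after TMM normalisation) among them and the titled stimulus for 16.0%, where 25% each is what no effect would give. The A libraries correlated with one another across genes at 0.9717 to 0.9766, against 0.9461 to 0.9548 with B and 0.9275 to 0.9599 with C. On the second principal component, with 24.4% of the variance, the A libraries lay at 51.1 to 59.0 and the other 6 at -8.05 or below. The C library titled CD40 stood apart from the other C libraries on the first component, which held 32.2%. The total numbers of higher and lower genes without it are given below, but not every list count. The B cell gene Cd79a, a signalling chain of the B cell receptor, stood at 1038 to 1145 CPM under A, 877 to 949 under B and 964 to 1007 under C, so the labelled cell type was present under each letter.

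Of 15727 genes tested, 880 (5.6% of those tested) were higher in A than in both B and C, and 665 (4.23%) were lower. A call needed a Benjamini-Hochberg adjusted p under 0.05 in both contrasts, from the quasi-likelihood F test of edgeR. Both contrasts use the same 3 A libraries, so they are not independent of each other. Against B alone, 2605 genes (16.6%) were higher in A and 2288 (14.5%) lower, and against C alone 1878 (11.9%) were higher and 1806 (11.5%) lower. The median log2 difference over all tested genes was 0.01 against B and 0.02 against C. Most called differences were modest: the median size of the smaller of the 2 log2 differences was 0.47 for both the higher and the lower genes. A difference of at least 2-fold in both contrasts was reached by 180 higher (1.14%) and 179 lower genes (1.14%), at least 4-fold by 67 and 89, and at least 8-fold by 36 and 44.

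The 3 A libraries lay above all 6 others for 831 of the 880 higher genes and below all 6 for 594 of the 665 lower genes. Over all tested genes, 1385 (8.81%) had A wholly above and 1002 (6.37%) had A wholly below. Within each titled stimulus taken alone, A was the highest of the 3 letters for 867 of the 880, and the lowest for 647 of the 665. These genes were called on the same libraries, so this agreement largely follows from the call and adds no support. The matching share over all genes tested is not given here. By the same rule letter B had 1508 genes (9.59%) higher than both other letters and letter C 1026 (6.52%), so a gene set apart from the other letters was not confined to A. Between B and C alone, 2721 genes (17.3%) were higher in B and 2757 (17.5%) lower. B and C differed for 346 of the 880 higher genes (39.3%) and for 303 of the 665 lower genes (45.6%). Without the C library titled CD40, 829 genes were higher and 651 lower, of which 757 and 577 were among the original calls. In a fit of all 15 libraries without the stimulus block, where the naive and GC libraries share in the estimate of spread, 119 genes were higher and 78 lower, all of them among the 880 and 665.

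**Figure D1:**
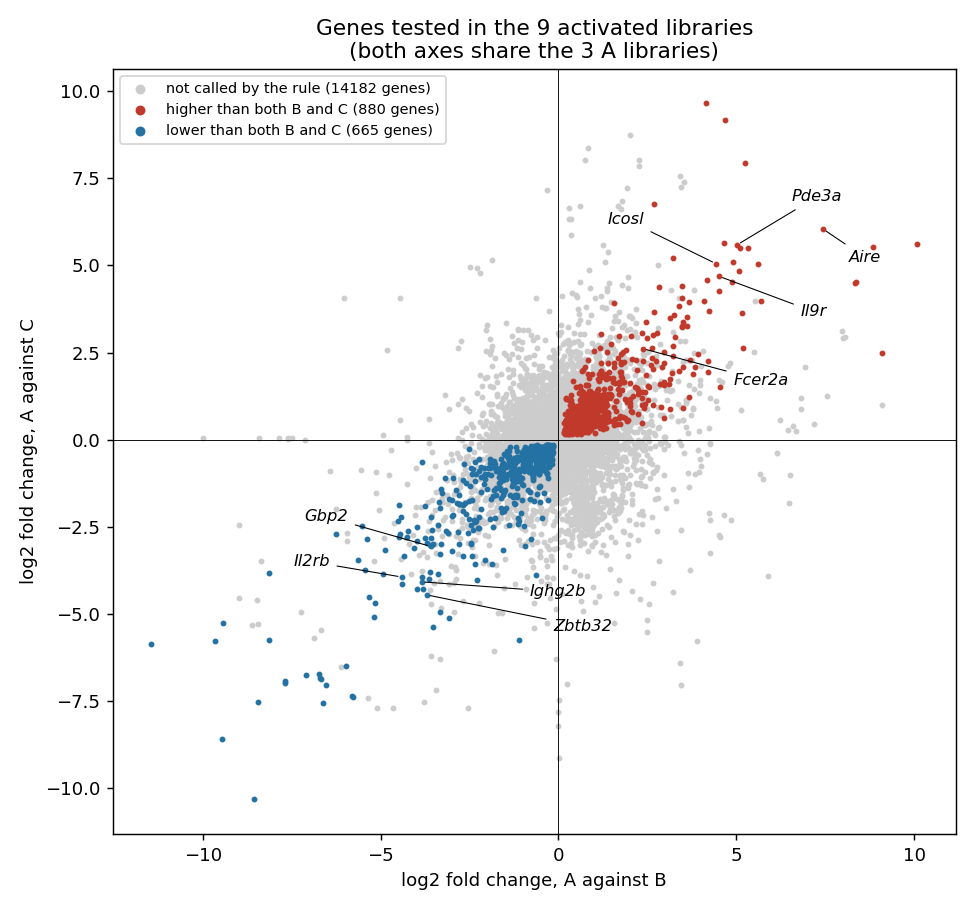
Log2 fold change of A against B (horizontal) and of A against C (vertical) for each of the 15727 genes tested in the 9 activated libraries. Red points are the 880 genes higher in A than in both letters and blue points the 665 lower genes, and the axes share the 3 A libraries, so the slope of the cloud carries no information.

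Fcer2a (ENSMUSG00000005540, chromosome 8, 3681737 to 3694175, minus strand, GRCm38 coordinates here and below) was high in every A library. It stood at 958, 882 and 974 CPM in the A libraries titled CD40, CpG and LPS, at 181, 179 and 181 in B and at 149, 154 and 158 in C, in that order of stimuli here and throughout. The 3 A libraries were far above all 6 others, and within each letter the 3 titled stimuli were close together. The difference was 2.38 on the log2 scale against B (SE 0.06, adjusted p = 1.07e-20) and 2.61 against C (SE 0.06, adjusted p = 8.57e-21), or 5.19- and 6.11-fold. Uncultured naive cells held 1054, 689.7 and 1212 CPM and GC cells 56.5, 64.4 and 71.7, so the level in A lay within the naive range and B and C lay between the naive and GC ranges.

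Aire (ENSMUSG00000000731, chromosome 10, 78030022 to 78043610, minus strand) was the gene with the largest difference from both letters among the named higher genes. It stood at 25.4, 35.9 and 41.1 CPM under A, 0.189, 0.367 and 0 under B and 0.693, 0.492 and 0.385 under C. Every A library was above every other library, including the naive ones at 5.42, 8.3 and 3.99 and the GC ones at 2.73, 4.14 and 1.52. The log2 difference was 7.44 against B (SE 0.37, adjusted p = 4.6e-13) and 6.04 against C (SE 0.32, adjusted p = 1.61e-12). Within A the library titled CD40 was the lowest and that titled LPS the highest.

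Icosl (ENSMUSG00000000732, chromosome 10, 78069302 to 78083913, plus strand), which encodes the ligand by which B cells engage ICOS on T cells, starts 25.7 kb from the start of Aire. It stood at 12.7, 17.7 and 18.8 CPM under A, 0.693, 0.367 and 1.37 under B and 0.616, 0.307 and 0.606 under C, a log2 difference of 4.42 (SE 0.33, adjusted p = 6.06e-11) and 5.05 (SE 0.34, adjusted p = 1.17e-11). In naive cells it stood at 559, 576 and 743 and in GC cells at 150.4, 153 and 163, so all 9 activated libraries were below both uncultured groups and A was the least reduced. Besides Aire and Icosl, 8 tested protein-coding genes start within 300 kb of Aire, and 1 was higher than both letters: Trappc10, a subunit of a vesicle tethering complex, with means of 100.6 (A), 63.2 (B) and 65.1 CPM (C). Dnmt3l overlaps the start of Aire on the opposite strand and had means of 0.70, 0.042 and 0.18 CPM in A, B and C, with adjusted p = 0.0288 against B and 0.119 against C. The strand setting of the authors' counting is not given in the sources used here, so reads from the overlap of Aire and Dnmt3l cannot be told apart. A list of 15 genes of Aire and medullary thymic epithelium had 5 tested members, of which Aire was higher and the tight junction gene Cldn4 lower, at 2.52, 3.36 and 2.49 CPM under A, 10.8, 13.1 and 14.8 under B and 3.85, 5.9 and 8.53 under C; 6 members had no count in any activated library.

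**Figure D2:**
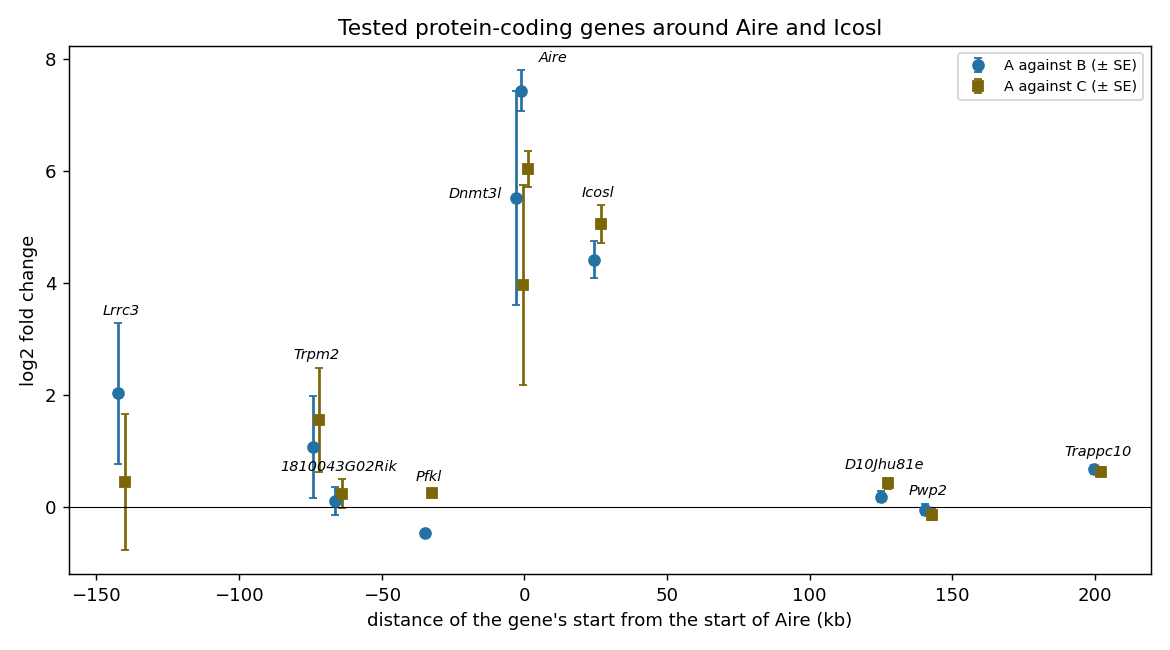
Log2 fold change (± SE) of A against B (blue circles) and A against C (brown squares) for the 10 tested protein-coding genes that start within 300 kb of Aire, plotted by the distance of their start from that of Aire in kb. Aire and Icosl stand above 4 in both contrasts, and Dnmt3l has the widest error bars. Pwp2 lies near 0, and Pfkl at -0.47 against B and 0.25 against C (SE 0.06 and 0.06).

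The promoters of Fcer2a, Aire and Icosl, and of Ltb described below, are shown because these genes were all higher in A. Ltb is a target of NF-kB and Fcer2a of STAT6. The windows are the 250 bases before an annotated start, from RefSeq on GRCm38.p6, written 5′ to 3′ on the gene's strand. For Fcer2a the window shown is that of an internal start, at chr8:3690862-3691111 (minus strand). The others lie at chr10:78043611-78043860 (minus) for Aire, chr10:78069118-78069367 (plus) for Icosl and chr17:35194257-35194506 (plus) for Ltb. Capitals mark matches, on either strand, to 3 motifs: TTC and GAA with 4 bases between them, the spacing STAT6 prefers; TTC and GAA with 3 bases between them, the spacing of other STAT factors; and GGG and TTTCC with 2 bases between them, as in NF-kB sites. No position can match both STAT spacings with the same TTC and GAA.
Fcer2a: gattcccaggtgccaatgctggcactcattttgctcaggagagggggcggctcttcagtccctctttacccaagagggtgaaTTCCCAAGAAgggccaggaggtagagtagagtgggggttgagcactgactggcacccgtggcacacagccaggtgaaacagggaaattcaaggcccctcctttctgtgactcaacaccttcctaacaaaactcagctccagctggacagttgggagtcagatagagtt
Aire: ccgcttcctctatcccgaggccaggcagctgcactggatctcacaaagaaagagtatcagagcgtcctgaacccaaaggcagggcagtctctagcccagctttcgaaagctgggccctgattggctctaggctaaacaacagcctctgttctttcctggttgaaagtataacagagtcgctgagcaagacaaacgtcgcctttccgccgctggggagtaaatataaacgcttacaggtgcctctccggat
Icosl: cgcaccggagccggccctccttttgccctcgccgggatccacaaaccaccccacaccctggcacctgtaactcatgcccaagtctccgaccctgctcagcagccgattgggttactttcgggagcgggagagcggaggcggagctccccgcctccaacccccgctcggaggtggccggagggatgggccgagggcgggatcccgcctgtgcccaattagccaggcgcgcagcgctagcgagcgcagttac
Ltb: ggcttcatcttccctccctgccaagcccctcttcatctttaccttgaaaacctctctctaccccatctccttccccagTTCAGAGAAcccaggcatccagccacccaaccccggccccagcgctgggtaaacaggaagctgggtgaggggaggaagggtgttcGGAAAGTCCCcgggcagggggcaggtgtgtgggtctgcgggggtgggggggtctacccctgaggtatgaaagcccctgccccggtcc
Fcer2a has 3 windows, and only the window printed held a match to the STAT6 spacing, which starts 168 bases before that internal start. The window before the start of the gene as given above, chr8:3694175-3694424, held none of the 3 motifs. The Ltb window held 1 match to the other STAT spacing and 1 to the NF-kB motif, and the Aire and Icosl windows held none of the 3 motifs. In windows of 300 bases (250 before the start to 50 after), the STAT6 spacing stood in 4.49% of 957 windows of genes higher in A, 5.26% of 647 windows of lower genes and 5.45% of 13050 windows of all tested genes. The other STAT spacing stood in 5.75%, 7.73% and 6.87% of the same sets, and the NF-kB motif in 2.40%, 3.25% and 1.70%. A promoter window was found for 693 of the 880 higher and 512 of the 665 lower genes. A match describes letters in a window and shows neither binding nor a cause.

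The other genes most set apart on the high side joined receptors, signalling enzymes and genes better known from nerve or muscle. Il9r (ENSMUSG00000020279, chromosome 11, 32187541 to 32200279, minus strand), the interleukin 9 receptor chain carried by some memory B cells, stood at 102, 107 and 123 CPM under A, 5.58, 3.78 and 5.15 under B and 4.93, 5.07 and 3.0 under C. The difference was 22.9-fold against B and 25.8-fold against C (log2 4.52 and 4.69, SE 0.17 and 0.17, adjusted p = 4.71e-14 and 3.47e-14). Naive cells held 80.3, 327 and 85.9, on both sides of the level in A.

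Gnb4 (ENSMUSG00000027669, chromosome 3, 32580332 to 32616585, minus strand), a beta subunit of heterotrimeric G proteins, stood at 317, 308 and 324 CPM under A, 29.6, 42.3 and 30.3 under B and 51.2, 51.2 and 46.1 under C. Its log2 difference was 3.23 (SE 0.09, adjusted p = 1.76e-17) and 2.68 (SE 0.09, adjusted p = 4.08e-16). Naive cells held 4.26, 0 and 4.34 and GC cells 30.9, 33.8 and 17.1, so A was the highest of all 5 sets of libraries. Rassf6 (ENSMUSG00000029370, chromosome 5, 90603076 to 90640657, minus strand), a Ras-association domain protein, stood at 35.5, 32.3 and 40.9 under A, 4.44, 3.41 and 3.46 under B and 5.32, 4.12 and 4.79 under C, log2 3.26 and 2.94 (adjusted p = 6.38e-14 and 3.25e-13). GC cells held 233, 220.2 and 228, above A, and naive cells at most 4.23.

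Lower down in level, Pde3a, a cyclic nucleotide phosphodiesterase, stood at 4.24, 5.58 and 6.22 CPM in A against 0, 0.660 and 0.161 in B and 0, 0.492 and 0.0551 in C. Nebl, an actin-binding protein of the nebulin family, stood at 6.03, 9.38 and 16.8 in A against 0.126, 0.734 and 0.241 and 0.385, 0.369 and 0.165. Gad1, which makes the neurotransmitter GABA from glutamate, stood at 8.86, 12.7 and 14.8 against 0.252, 0.807 and 0.483 and 0, 0.430 and 0.330. All 3 genes were above every B and C library in every A library, with adjusted p between 1.95e-10 and 1.62e-05 over both contrasts. Pde3a had no count in any naive or GC library.

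Fam160a1 stood at 19.7, 14.3 and 18.1 CPM under A, 1.7, 1.39 and 1.21 under B and 3.16, 0.738 and 1.18 under C. Sertad4 stood at 13.5, 8.88 and 8.52 under A, 1.26, 0.954 and 0.563 under B and 0.616, 0.553 and 0.606 under C, and had no count in naive or GC cells. Fbln2, an extracellular matrix fibulin, stood at 10.2, 5.89 and 7.11 under A, 1.07, 0.367 and 1.37 under B and 0.0770, 0.0615 and 0.551 under C. For these genes too the A libraries did not overlap the others, and the uncultured cells were far below A. Nav2, Sntg2, Cox6a2 (a muscle form of a cytochrome c oxidase subunit) and Dock3 completed the 15, with A at 5.18 to 8.98, 4.19 to 7.54, 9.89 to 17.5 and 8.24 to 10.4 CPM and no B or C library above 4.11. In the fit of all 15 libraries, 11 of the 16 named higher genes kept the call. Pde3a, Gad1 and Nav2 missed it in both contrasts, Fbln2 against B and Dock3 against C.

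**Figure D3:**
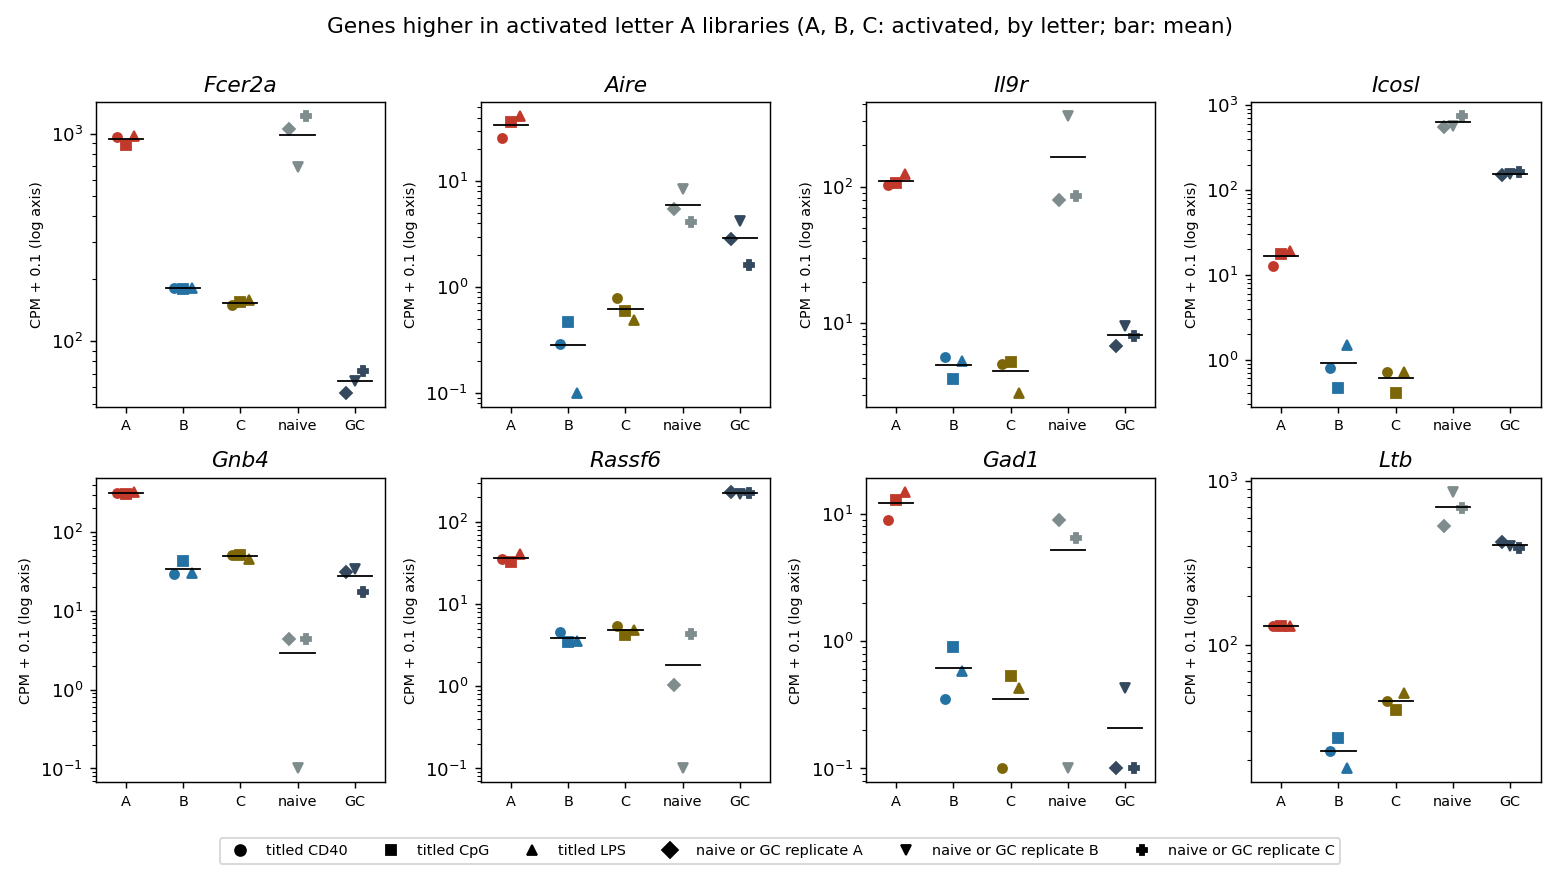
CPM + 0.1 on a log axis for 8 genes higher in A, with 1 point per library and a bar at the mean of each set of 3 (A, B and C are activated libraries by letter; naive and GC are uncultured). In each panel the 3 red A points lie above all 6 B and C points, while the naive and GC points lie above A for some genes (Icosl, Ltb) and below it for others (Gnb4 for both sets).

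The genes most set apart on the low side included several receptor chains. Il2rb (ENSMUSG00000068227, chromosome 15, 78479256 to 78495271, minus strand), the beta chain shared by the receptors for interleukins 2 and 15, stood at 7.51, 5.85 and 6.29 CPM under A, 157, 135 and 126 under B and 124, 93.8 and 86.4 under C. The difference was 21.3-fold against B and 15.4-fold against C (log2 -4.41 and -3.94, SE 0.09 and 0.09, adjusted p = 1.46e-21 and 8.57e-21). Naive cells held at most 1.77 and GC cells at most 5.61, so A lay nearer to the uncultured cells than B and C did.

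Csf2rb (ENSMUSG00000071713, chromosome 15, 78325752 to 78353847, plus strand), the common beta chain for interleukins 3 and 5 and GM-CSF, stood at 7.87, 7.94 and 7.01 CPM under A, 49, 44.5 and 69.4 under B and 48.7, 50.6 and 43.6 under C. Its close relative Csf2rb2 stood at 2.58, 2.96 and 2.1, 32.8, 40.4 and 48.1 and 17.3, 24.5 and 16.1. Both were lower in every A library than in any other activated library, with log2 differences of -2.82 and -2.65 for Csf2rb (adjusted p = 2.54e-13 and 7.98e-13) and -3.99 and -2.91 for Csf2rb2. The handling of reads that fit both genes is not given in the sources used here, so the split between them is uncertain.

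Zbtb32 (ENSMUSG00000006310, chromosome 7, 30589681 to 30598909, minus strand), a zinc finger repressor that restrains memory B cell recall, stood at 2.98, 4.98 and 4.0 CPM under A, 53.8, 53.8 and 47.4 under B and 95.8, 83 and 83.1 under C. It was 13- and 22-fold lower in A (log2 -3.70 and -4.46, adjusted p = 3.4e-17 and 1.86e-18). Gbp2 (ENSMUSG00000028270, chromosome 3, 142620602 to 142638008, plus strand), an interferon-inducible GTPase, stood at 16.6, 16.6 and 15.8 under A, 194, 216 and 181 under B and 126, 134 and 151 under C (log2 -3.59 and -3.07, adjusted p = 8.89e-21 and 4.23e-19), and its near copy Gbp2b at 9.81, 7.2 and 10.4, 101, 121 and 104 and 57.4, 63.8 and 73.9. Reads shared by Gbp2 and Gbp2b could be split either way. The level of Gbp2 in A lay within the naive range, 14.2 to 20.4.

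Ighg2b (ENSMUSG00000076613, chromosome 12, 113302965 to 113307933, minus strand), the constant region of IgG2b heavy chains, stood at 7.78, 9.86 and 8.35 CPM under A, 108, 118 and 148 under B and 153, 161 and 126 under C, log2 -3.85 (SE 0.13, adjusted p = 3.53e-14) and -4.08 (SE 0.13, adjusted p = 1.75e-14). Uncultured naive cells held 71.9, 55.5 and 22.2 and GC cells 1190.0, 2146 and 1563, so A was the lowest of the 5 sets. Ighg2c, its near relative, stood at 2.0, 1.78 and 0.622 under A, 6.43, 7.74 and 5.84 under B and 32.7, 27.5 and 12.4 under C and was also lower than both letters (adjusted p = 6.68e-08 and 2.04e-12), with the same uncertainty over shared reads.

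Lrrc32, which encodes GARP, a surface anchor for latent TGF-beta, stood at 19.7, 18.7 and 17.2 CPM under A, 212, 223 and 222 under B and 113, 107 and 119 under C. Serpinf1, a secreted serpin, stood at 2.98, 3.2 and 2.55 under A, 81, 101 and 74 under B and 21.9, 32.6 and 24.2 under C. Fcrl5, an Fc receptor-like protein of marginal zone and memory B cells, stood at 1.23, 1.21 and 3.34, 33.6, 51.1 and 42.3 and 13.1, 13.6 and 12.6. In all 3 genes B was above C and C above A, without overlap. Of the TNF receptor family, Tnfrsf25 stood at 1.17, 0.673 and 1.31, 19.1, 17.2 and 15.8 and 10.9, 8.7 and 7.65 and Tnfrsf9, which encodes 4-1BB, at 0.185, 1.68 and 0.852, 11.3, 17.5 and 16.1 and 2.85, 6.45 and 6.44. Gpr55, Mt1 (a metallothionein) and Sytl3 completed the 15, with A at 1.88 to 2.39, 2.82 to 3.44 and 1.01 to 1.47 CPM and no B or C library under 6.61. In the fit of all 15 libraries 10 of the 15 kept the call; Mt1 and Sytl3 missed it in both contrasts and Csf2rb2, Gbp2b and Tnfrsf9 against C.

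**Figure D4:**
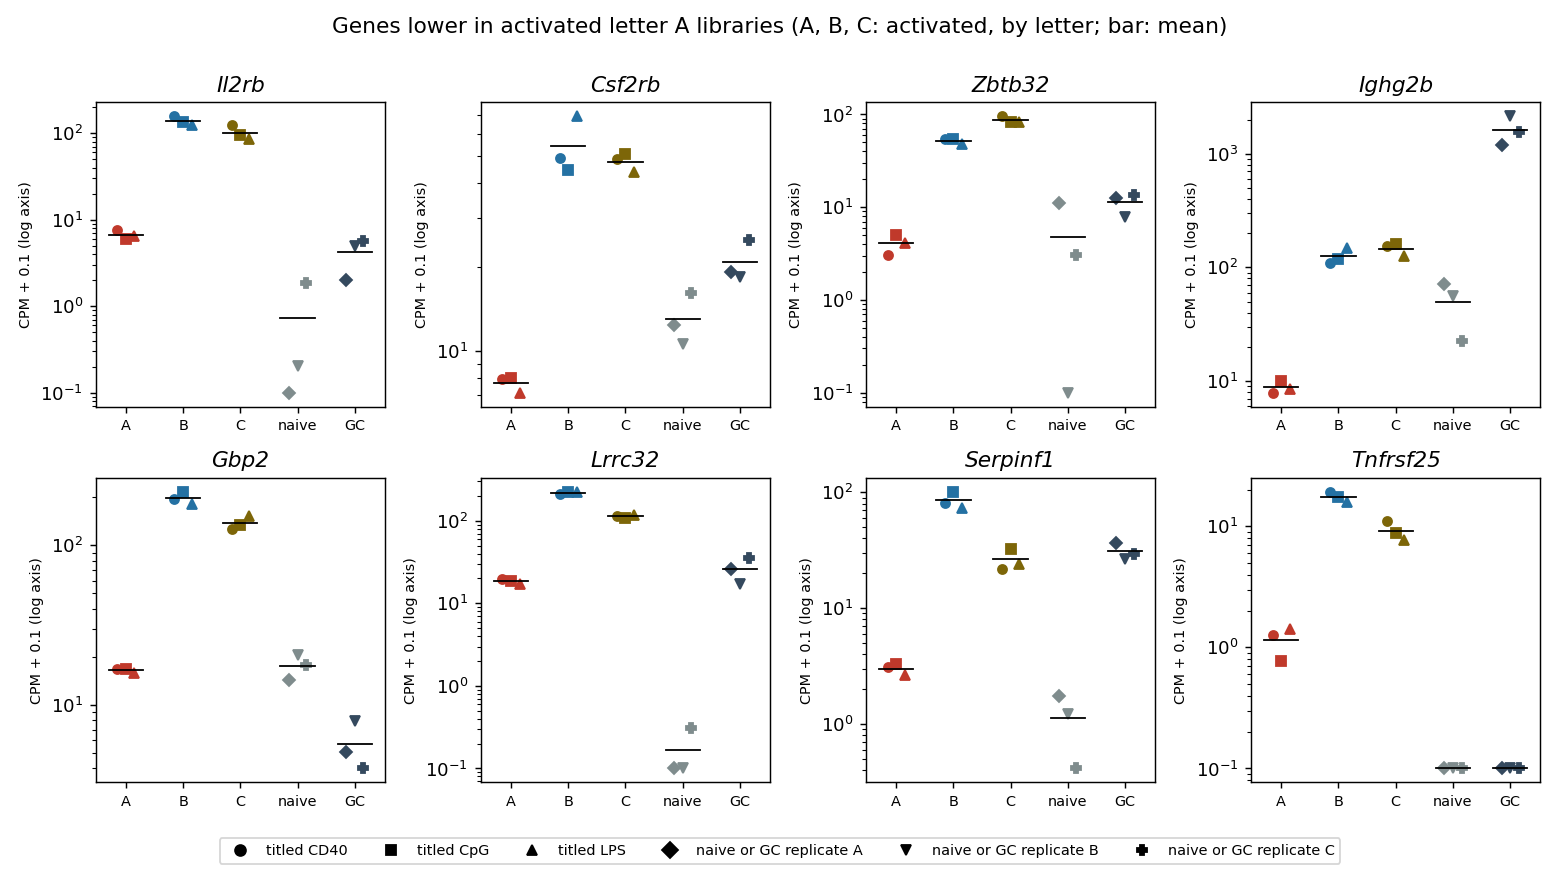
CPM + 0.1 on a log axis for 8 genes lower in A, with 1 point per library and a bar at the mean of each set of 3 (A, B and C are activated libraries by letter; naive and GC are uncultured). The 3 red A points lie below all 6 B and C points in each panel, and for Tnfrsf25 the uncultured libraries had no count and sit at the 0.1 added for the plot.

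The wider gene groups were taken from 28 lists of cell states, pathways and gene programmes and 8 lists of cell markers. The 8 cover other cell types and also marginal zone and B-1 B cells. All these lists together held 648 genes, of which 550 were tested. Over all these lists 62 different genes were higher in A than in both letters and 83 lower. Of these, 17 and 19 kept the call in the fit of all 15 libraries, and 43 and 57 kept it whichever single activated library was left out. The counts below are read against 5.6% higher and 4.23% lower over all genes tested, and the medians against 0.01 and 0.02.

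Of 15 tested genes of the IL-4 and STAT6 response, 5 were higher in A than in both letters and 1 was lower, with medians of 0.50 against B and 0.32 against C. Next to Fcer2a the higher genes were small in size. Il4ra, the IL-4 receptor chain, stood at 1822, 1941 and 1778 CPM under A, 1541, 1501 and 1499 under B and 1453, 1447 and 1545 under C (log2 0.29 and 0.32, adjusted p = 0.000172 and 6.94e-05). The feedback inhibitors Socs1 and Socs2 were 1.56- and 1.46-fold higher than in B and 1.31- and 1.3-fold higher than in C (adjusted p at most 0.000592). Only Fcer2a among them kept the call in the fit of all 15 libraries. The lower gene, the chemokine gene Ccl17, stood at 0.135 to 1.05 CPM in A and its call was lost without the A library titled CpG, the B library titled CpG or that titled LPS, and against B without the block (adjusted p = 0.0938). Ighe, the IgE constant region, whose switch IL-4 directs, was not set apart: it stood at 2048, 2490.3 and 2371 under A, 202, 202 and 225 under B and 2645, 2718 and 2354 under C, higher in A than in B (adjusted p = 2.11e-21) with adjusted p = 0.0791 against C.

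Of 25 tested genes of the CD40 and NF-kB response, 7 were higher and 2 lower, with medians of -0.26 against B and 0.42 against C. Ltb (ENSMUSG00000024399, chromosome 17, 35194439 to 35196320, plus strand), which encodes lymphotoxin beta, the membrane partner of lymphotoxin alpha, stood at 130.2, 130.5 and 132 CPM under A, 22.8, 27 and 17.7 under B and 46, 40.5 and 51.4 under C (log2 2.54 and 1.51, adjusted p = 4.57e-13 and 9.73e-10). Birc3, an inhibitor of apoptosis that also turns over the kinase NIK, stood at 355, 348 and 367, 239, 217 and 257 and 219, 241 and 248.97. Map3k14, which encodes NIK, and Cd83, an activation marker, were 1.28- and 1.33-fold higher than in B and 1.34- and 1.7-fold higher than in C. Lta, which encodes lymphotoxin alpha, stood at 27.8, 26.1 and 33.7, 16.8, 15.4 and 16 and 21, 20.5 and 23.3, and its call against C was lost without the A library titled LPS (adjusted p = 0.121). Cd86, a ligand for CD28 on T cells, was lower, at 131, 127 and 134 in A against 197, 215 and 203 and 156, 206 and 191. Ltb, Birc3 and Cd86 kept the call in the fit of all 15 libraries, and without the A library titled LPS 4 of the list were higher in place of 7. For 13 of the 25 genes A was below B, among them Nfkb2 at 291, 297 and 323 under A, 393, 436 and 411 under B and 170.0, 181 and 174 under C, between the other letters.

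Among the 27 lists of cell states, pathways and gene programmes with at least 5 tested genes, GC B cells had the largest share of higher members. Of 17 genes tested, 9 were higher and 0 lower, with medians of 0.76 and 0.55. Leaving out each activated library gave 7 to 9 higher and 0 lower. Fas, one of the 9, lost its call without any single B library and without the A library titled CD40 or LPS. Mef2c, a transcription factor of B cell proliferation and survival, stood at 913, 996 and 926 CPM under A, 452, 481 and 485 under B and 524, 533 and 568 under C (log2 1.00 and 0.80). Cxcr4, the chemokine receptor of the dark zone, stood at 93.4, 95.1 and 84.9, 29.6, 36.2 and 43.2 and 52.4, 41.2 and 35.4. Pou2af1, a B cell coactivator, Neil1, a DNA glycosylase, and Basp1 were also higher than both letters. Gcsam, a signalling adaptor of GC B cells, stood at 2.28, 5.62 and 5.11 under A, 0.252, 0.367 and 0.0805 under B and 0.848, 2.03 and 0.716 under C, and Efnb1, which encodes an ephrin, at 8.18, 4.98 and 7.86, 2.27, 2.86 and 3.78 and 2.23, 1.11 and 2.97. The call of Gcsam was lost against C without the A library titled LPS (adjusted p = 0.165) and that of Efnb1 against B without the B library titled CD40 (adjusted p = 0.0556). Bcl6, the repressor at the centre of the GC programme, was not called: it stood at 39.5, 45.2 and 51.2 under A, 37.7, 41 and 39.97 under B and 18.7, 23.7 and 21.3 under C, with adjusted p = 0.177 against B, and sorted GC cells held 419, 368 and 391. In the fit of all 15 libraries Cxcr4, Mef2c and Gcsam kept the call. Of 19 tested genes of class switching and somatic mutation 3 were higher and 0 lower; Xrcc5, which encodes the end-joining protein Ku80, stood at 26, 26.1 and 22.9, 7.0, 7.26 and 5.63 and 16.6, 19.1 and 16.5, while the call of Trp53bp1, a repair protein gene, was lost in 11 of the other fits, 6 of them fits that left out an activated library.

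Of 23 tested genes of follicular B cells, 8 were higher and 3 lower. Besides Fcer2a and Ltb, Foxo1, a transcription factor that keeps naive cells quiescent, stood at 139.7, 154 and 134 CPM under A, 82.8, 93.4 and 92.4 under B and 104, 98.7 and 101 under C. Tcf7, a transcription factor better known from T cells, stood at 19.9, 19 and 22.2, 4.35, 6.24 and 8.13 and 4.16, 5.59 and 6.61. Btg1, an antiproliferative gene, Cd55, a complement regulator, Gpr183, an oxysterol receptor that guides B cells to the outer follicle, and Klf2, a regulator of trafficking, were higher too. Among the lower genes were the signalling adaptor Bank1 and Fcrl1, an Fc receptor-like protein, at 6.98, 4.78 and 5.27, 8.86, 12.1 and 9.78 and 15.6, 16 and 14.6. The members thus did not move as a set, and 5 of the 8 and 2 of the 3 kept the call in the fit of all 15 libraries. Of 15 tested marginal zone and B-1 genes 0 were higher and 5 lower, with Plac8 at 6.89, 8.71 and 7.47 under A, 25.5, 32.4 and 26.2 under B and 98.8, 87.5 and 87.4 under C and Ahnak, a large scaffold protein, at 6.15, 7.0 and 5.24, 11.6, 16.6 and 17.5 and 13.2, 15.3 and 11.8. Zbtb32, Dtx1 (a regulator of Notch signalling) and Notch2, the receptor that marginal zone cells need, were the other 3 lower genes. Against B alone 5 of the 15 were higher in A and 5 lower, and against C alone 1 was higher and 9 lower (medians -0.16 and -0.71). S1pr3 went the other way without a call, at 26.6 to 30.6 CPM under A, 21.8 to 25.9 under B and 20.1 to 22.5 under C. Of 15 tested memory B cell genes 2 were higher and 5 lower, with the calcium-binding protein gene S100a6 at 3.32, 3.43 and 2.42, 27.2, 23 and 23.3 and 11, 16 and 15.1 and the transcription factor gene Hhex at 5.48, 5.52 and 4.78, 15.1, 17.2 and 14.5 and 8.01, 14.1 and 13.8. Nt5e, which encodes CD73, was among the lower genes, a call lost against C without the A library titled CpG, the A library titled LPS or the C library titled CD40 (adjusted p = 0.0538, 0.0748 and 0.139).

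Plasma cell genes placed A between the other letters rather than apart from them. Of 21 tested, 1 was higher and 1 lower than both letters, while 17 were higher in A than in B and 17 lower in A than in C (medians 0.68 and -0.86). Prdm1, the repressor that drives plasma cell differentiation, stood at 10.7, 11.5 and 8.25 CPM under A, 2.8, 3.38 and 4.71 under B and 78.1, 77.8 and 57.7 under C. Jchain, which links polymeric antibody, stood at 85.9, 113 and 68.8, 16.8, 18.8 and 17.6 and 2122, 2823 and 1527. The higher gene was Slamf7, a surface receptor of plasma cells, at 263, 261 and 249.9 under A, 92.3, 103 and 99.7 under B and 148, 151 and 161 under C, and the lower gene was Tnfrsf13b, which encodes TACI, a receptor for BAFF and APRIL, at 134, 125 and 132, 167, 146 and 179.9 and 265, 253 and 257. The 22 tested genes of the unfolded protein response went the same way, with 18 above B, 16 below C and 1 called higher than both, the sensor Atf6 (log2 1.13 and 0.45). Xbp1, the transcription factor of this response, stood at 1246, 1345 and 1370.0, 816, 845 and 807 and 1398, 1506 and 1335. In the fit of all 15 libraries, 0 plasma cell genes and 0 genes of the unfolded protein response were called by the rule.

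Immunoglobulin genes took 1.89% ± 0.0378 (SD, n = 3) of counts in A, 1.18% ± 0.0201 in B and 6.75% ± 1.52 in C, an exact two-sided permutation p of 0.429 for A against the other 6 (adjusted 0.793 over 5 library measures; smallest possible 0.0119). Of 12 constant region genes tested, 0 were higher and 3 lower, Ighg2b, Ighg2c and Ighg3. Ighg3 stood at 7.6, 4.41 and 3.05 CPM under A, 10.8, 10.9 and 10.4 under B and 280.4, 357 and 183 under C, and its call against B was lost without the block (adjusted p = 0.103), without the filter on low counts (0.116), and without the A library titled CpG or LPS, the B library titled CD40 or CpG, or the C library titled CD40 or LPS (0.061 to 0.162). Ighg1 stood at 4275, 4213 and 4167 under A, 2968, 3029 and 2941 under B and 10253, 10103 and 7994 under C, between the letters. Ighm stood at 4017, 4052 and 3528 in A and 3637, 4007 and 3438 in B, and at 25518, 29511 and 16046 in C.

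The Toll-like receptor pathway includes the receptors that sense CpG and LPS, and of its 21 tested genes 0 were higher than both letters and 3 lower. Against B alone 5 were higher in A and 5 lower, and against C alone 2 were higher and 7 lower (medians 0.11 and -0.17). Cd180, a relative of TLR4, stood at 18.7, 19.4 and 18.7 CPM under A, 26.8, 35.1 and 31.5 under B and 42.2, 34.4 and 39 under C, and the kinase gene Irak2 at 15.7, 13.9 and 15.7, 32.3, 35.2 and 36.9 and 21.7, 25.5 and 19.5. Ly86, which encodes MD-1, the partner of the Cd180 product, was the third. Tlr9, the receptor for CpG, stood at 26, 31.5 and 15.6, 23.7, 25.5 and 17.2 and 33.3, 25.7 and 21.2, with overlap between the letters. Of 25 tested type I interferon genes 0 were higher and 4 lower, while 24 were lower in A than in C (medians -0.18 and -3.13). Irf7 stood at 4.68, 3.83 and 5.76 under A, 4.98, 5.87 and 5.27 under B and 61, 46.8 and 48.1 under C, so this gene separated C and not A. Ifih1, an RNA sensor, was lower in A than in both letters, at 8.8, 7.37 and 7.89, 14.7, 17.5 and 20.5 and 41.9, 35.4 and 38, as were Xaf1 and Bst2, with log2 differences from B of -0.79 and -0.61.

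Of 23 tested genes of B cell receptor signalling, 3 were higher and 6 lower. The kinase gene Syk stood at 85.1, 92.7 and 82.5 CPM under A, 242, 258 and 234 under B and 192, 178 and 182 under C (log2 -1.50 and -1.09, adjusted p = 1.25e-15 and 7.92e-13). The inhibitory Fc receptor gene Fcgr2b stood at 6.06, 6.42 and 7.86, 24.4, 25.2 and 22.9 and 38.6, 42.1 and 34.2 (log2 -1.83 and -2.50), below the naive level of 199.8 to 242 in every activated library. Dok3, an adaptor that restrains the pathway, was 1.55- and 1.62-fold lower. These 3 kept the call in the fit of all 15 libraries. On the other side, Prkcb, the protein kinase C of this pathway, stood at 93.8, 106 and 104 under A, 58, 61.5 and 57.7 under B and 59.5, 62.5 and 64.4 under C, and Inpp5d, which encodes the inhibitory phosphatase SHIP, was 1.61- and 1.4-fold higher. Of 14 tested genes of class II antigen presentation and costimulation 6 were higher and 2 lower. Besides Icosl these were the peptide loading genes H2-DMa, H2-DMb1, H2-DMb2 and H2-Oa, 1.19- to 2.02-fold higher, and Cd80, whose call against C was small (1.32-fold) and lost without the A library titled CD40, the A library titled LPS or the C library titled LPS (adjusted p = 0.0803, 0.172 and 0.118). The lower genes were Cd86 and H2-Eb1, and 1 in place of 2 was lower whichever activated library was left out. Only Icosl among the 6 higher genes kept the call in the fit of all 15 libraries.

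Among cytokines and chemokines, 3 of 15 tested genes were higher and 4 lower. Il10, the gene of the regulatory cytokine interleukin 10, had no count in any A library, 0.945, 1.76 and 2.01 CPM in B and 3.62, 6.15 and 6.28 in C. Against a floor of 3 counts over the 3 A libraries it was at least 48.6-fold lower than in B and at least 165-fold lower than in C. Il6 stood at 4.49, 1.88 and 2.36 under A, 12.9, 13.7 and 17.7 under B and 20.5, 12.7 and 18.9 under C, and Ccl4 at 0.308, 0.538 and 0.0655, 3.59, 2.64 and 3.38 and 1.89, 3.87 and 1.54. Csf1, the macrophage growth factor gene, was higher, at 341, 369.9 and 376 under A, 242, 271 and 260.1 under B and 258, 339 and 292 under C. Of 18 tested TNF receptor family genes 7 were lower, with Tnfrsf13c, which encodes the BAFF receptor, at 188, 202 and 189 under A, 423, 469 and 418 under B and 276, 272 and 275 under C, and Tnfrsf4, which encodes OX40, at 2.95, 1.88 and 2.88, 7.88, 6.71 and 10.1 and 6.47, 6.15 and 5.23. The 2 higher genes were Fas and Tnfrsf21, a count that fell to 0 without the A library titled CD40 or that titled LPS. The call of Fas against B was also lost without the B library titled CD40, CpG or LPS (adjusted p = 0.066, 0.223 and 0.0823) and without the block (0.134). That of Tnfrsf21 against C was also lost without the A library titled CpG or the C library titled CD40 or CpG (0.0629, 0.0587 and 0.234). Of 18 tested homing and adhesion genes 3 were higher and 2 lower: Cxcr4, Gpr183 and Cd44, the hyaluronan receptor gene, were higher, and Itgb1, the integrin beta 1 gene, was among the lower ones, at 92.2, 98.1 and 92.8 under A, 138, 144 and 149 under B and 114, 130.3 and 135 under C.

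**Figure D5:**
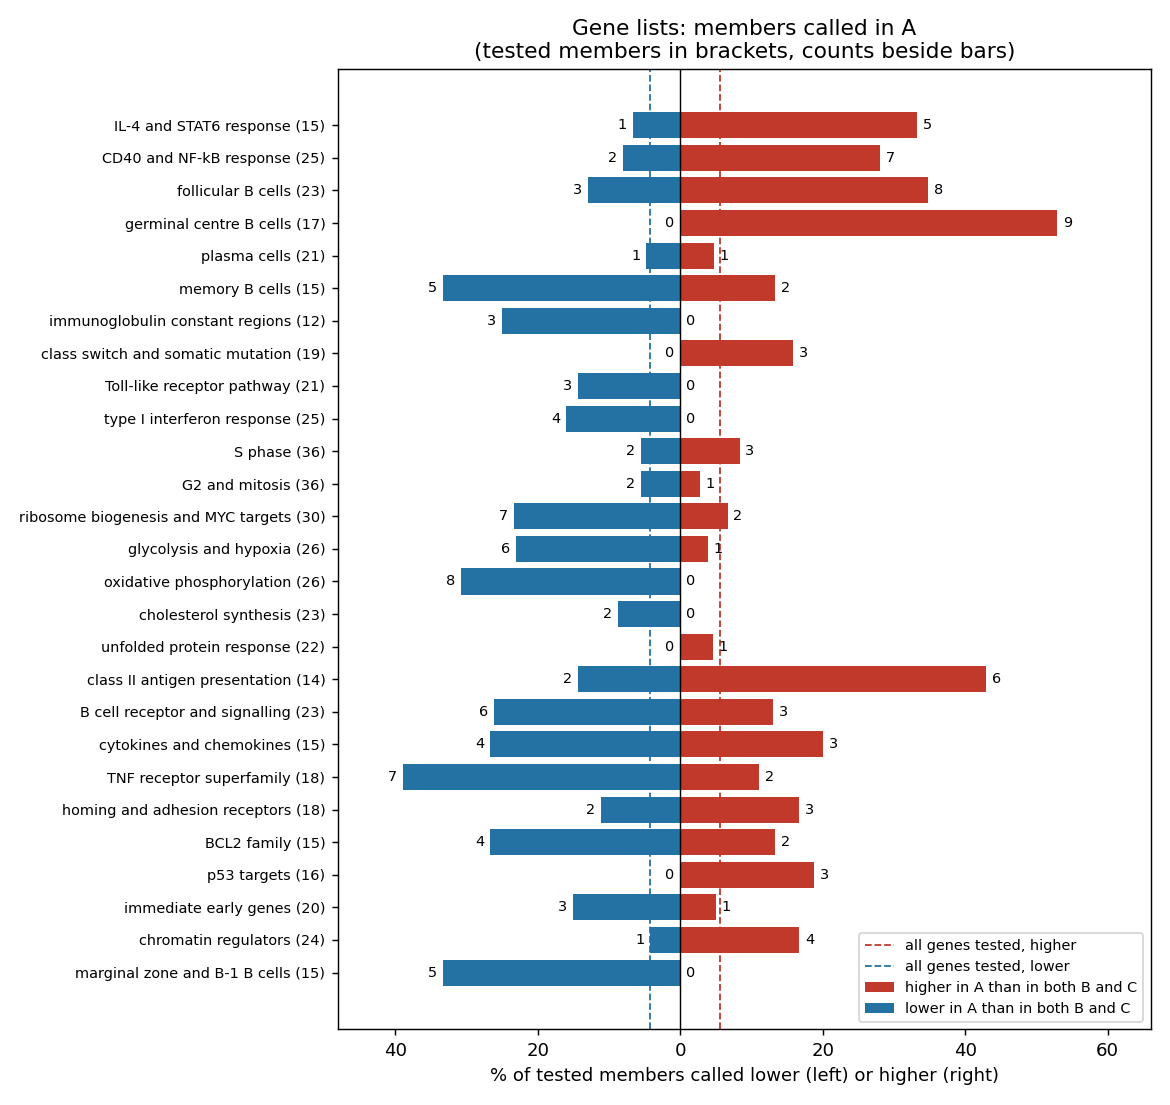
Share of tested members of each list with at least 12 tested genes called higher (red, right) or lower (blue, left) in A than in both B and C, in percent. The number tested stands in brackets and the number called beside each bar. Dashed lines mark the shares over all genes tested, 5.6% and 4.23%, and germinal centre B cells have the longest red bar, at 9 of 17.

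Metabolic and growth lists are given next. Of 26 tested oxidative phosphorylation genes 0 were higher and 8 lower, with medians of -0.25 and -0.19. The largest was Ndufs3, a subunit of complex I, at 1.32- and 1.25-fold lower, a call lost against C without the A library titled LPS or the C library titled CD40 (adjusted p = 0.0805 and 0.0972). Cox7a2 and Sdhc, subunits of complexes IV and II, were next. The count of 8 fell to 3 without the A library titled LPS, and to 5 without the A library titled CpG, the B library titled CD40 or the B library titled CpG, and was 0 in the fit of all 15 libraries. Of 26 tested glycolysis and hypoxia genes 1 was higher and 6 lower, with medians of -0.74 against B and 0.12 against C, and 23 were lower in A than in B. Ldha, the lactate dehydrogenase gene, stood at 864, 924 and 821 CPM under A, 1655, 1706 and 1596 under B and 1043, 1070.3 and 1004 under C, and Egln3, a hypoxia-induced hydroxylase gene, at 22.6, 25.6 and 18.9, 87, 119.7 and 95.8 and 33, 44.2 and 38. Hk2, which encodes a hexokinase, was 1.32- and 1.36-fold lower. The higher gene was Hif1a, the hypoxia-regulated transcription factor itself, at 118, 127 and 109.9 under A, 63.2, 56.5 and 59.1 under B and 72.5, 84.6 and 74.4 under C, which kept the call in the fit of all 15 libraries, where 0 of the 6 lower genes did. Of 23 tested cholesterol synthesis genes 0 were higher and 2 lower, Cyp51 and Msmo1, 1.15- to 1.22-fold; the count was 1 without the A library titled CpG, the A library titled LPS or the C library titled CpG.

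Of 30 tested genes of ribosome biogenesis and MYC targets 2 were higher and 7 lower, the latter 4 without the block or without the A library titled CD40, the A library titled LPS or the B library titled CpG. Myc was higher, at 260.1, 268 and 254 CPM under A, 144, 156 and 139.5 under B and 187, 178 and 188 under C, while its target Odc1, which makes polyamines, was lower, at 204, 193 and 206, 337, 324 and 329 and 417, 364 and 381. Tfrc, the transferrin receptor gene, was 1.4- and 1.55-fold higher, and Hspd1, a mitochondrial chaperone gene, was lower. The fit of all 15 libraries called 0 genes of this list. Ribosomal protein genes took 11.97% ± 0.773 (SD, n = 3) of counts in A, 15.5% ± 0.255 in B and 10.7% ± 0.747 in C (exact two-sided permutation p = 0.476 for A against the other 6, adjusted 0.793). Every A library was below every B library, while A and C overlapped, which a test against B and C together cannot show. Among cell cycle genes 3 of 36 S phase genes were higher and 2 lower, and 1 of 36 genes of G2 and mitosis was higher and 2 lower, near the shares over all genes. Of the S phase genes 25 were higher in A than in B (medians 0.32 against B and -0.06 against C). Without the A library titled CpG, 0 S phase genes were higher and 6 of G2 and mitosis were lower. The S phase count was also 0 without the C library titled CpG, and 1 without the A library titled CD40, the B library titled CpG, the C library titled CD40 or the block. The higher S phase genes were Rfc3, E2f1 and Blm and the higher mitotic gene Racgap1; Rfc3, the first of them by size, was 1.3- and 1.29-fold higher. Cenpa, the centromeric histone gene, was lower. Orc1, a subunit of the origin recognition complex, was 2.39- and 1.81-fold lower and Cdc25c, a mitotic phosphatase, 1.49- and 1.63-fold lower. Mki67 stood at 572, 599 and 554 under A, 407, 392.1 and 432 under B and 669.6, 683 and 639.5 under C.

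Of 15 tested BCL2 family genes 2 were higher and 4 lower, with the death-promoting genes Bmf at 7.01, 8.81 and 6.22 CPM under A, 16.1, 24.7 and 21.1 under B and 10.3, 16.6 and 11.9 under C and Bcl2l11, which encodes BIM, at 206, 254 and 203, 264, 287 and 307 and 288, 335 and 348. Bak1, also death-promoting, and Bcl2l1, the survival gene that encodes BCL-XL, were lower as well. The higher genes, Bid and Bbc3, are death-promoting. The call of Bid was lost in 6 and that of Bcl2l1 in 4 of the 9 fits that left out an activated library. Bcl2 stood at 46.6, 39.7 and 39.5, 39.1, 46.7 and 42.1 and 24.4, 20.5 and 24.3, with A and B overlapping. Of 16 tested p53 targets 3 were higher and 0 lower, with Bbc3, which encodes PUMA, at 66.4, 59.7 and 60.7 under A, 45.9, 45.2 and 42.5 under B and 37.9, 35.9 and 33.8 under C. Sesn2 and Zmat3 were the others. Of 20 tested immediate early genes 1 was higher and 3 lower, with Atf3 at 5.41, 4.78 and 6.55, 63.2, 70.9 and 65.2 and 26.3, 29.3 and 22.5 and Jun, the higher gene, at 86.2, 87.8 and 79.6, 44.8, 59.98 and 51.8 and 58.5, 58.5 and 57.7. Fosl2 and Egr3 were the other lower genes. Of 24 tested chromatin regulators 4 were higher and 1 lower, with the acetyltransferase gene Crebbp at 85, 88.8 and 90.8 under A, 63.1, 54.3 and 54.3 under B and 67.2, 51.3 and 63.1 under C. Tet3, Smarca4 and Dnmt3a were the other higher genes. Of 12 pluripotency genes, 3 were tested and 2 higher, Klf2 and Klf4, and 7 had no count in any activated library. None of the BCL2 family, p53 or immediate early genes and 1 chromatin regulator, Crebbp, kept the call in the fit of all 15 libraries.

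Markers of other cells were measured for the same contrasts. The summed CPM of the 10 dendritic cell genes was 122 to 136 in A, 425 to 483 in B and 218 to 232 in C, with 4 of 6 tested lower, 1 higher and Clec9a at 0 in all 9 libraries. In A, Flt3 (26.8 to 44.5), Zbtb46 (37.9 to 39.5), Bst2 (24.6 to 25.9) and Batf3, genes that B cells can also express, made up most of this sum. Zbtb46 was the higher gene. Batf3 stood at 19.3, 16.2 and 19.7 under A, 205, 194 and 171 under B and 69.9, 60.02 and 61.3 under C. The T cell genes summed to 42.2 to 46.8, 35.5 to 38.4 and 35.4 to 42.3, nearly all of it Lck (37.1 to 41.5 in A), while Cd3e was at most 0.615 and Cd4 and Cd3d had no count in A. Cd3g had no count in A either and was called lower, at least 14.1-fold than in B and at least 21.6-fold than in C against a floor of 3 counts over A, a call lost without the A library titled LPS or the B library titled LPS. The 14 myeloid genes summed to 37.5 to 42.1, 45.8 to 48.3 and 30.4 to 36.0, with Csf1r, C1qb and C1qc among those at 0 in all 9. Adgre1, the gene of the macrophage antigen F4/80, was nonetheless higher in A, at 19.1, 23.5 and 21.1 CPM against 3.31, 2.79 and 4.27 in B and 3.78, 4.43 and 4.41 in C, a call lost against C in the fit of all 15 libraries (adjusted p = 0.0631). Cd68, a lysosomal protein gene of macrophages, was lower in A, at 15.1, 15.2 and 15.9 CPM against 39.6, 42 and 41.9 in B and 24.8, 21.4 and 21 in C, and lost the call in that fit too.

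The remaining marker sums were small. Stromal and endothelial genes summed to 8.43 to 14.1, 22.3 to 25.2 and 19.3 to 23.0 CPM in A, B and C, mostly Pecam1, which B cells also carry, with Col3a1, Dcn, Pdgfra and Kdr at 0 in all 9. Of 3 tested, 1 was called lower in A, Pecam1, at 5.66 to 9.79 CPM against 18.1 to 19.1 in B and 15.9 to 20.8 in C. It kept the call in the fit of all 15 libraries. Natural killer genes summed to 7.94 to 11.1, 7.0 to 8.45 and 5.47 to 8.76, with Ncr1 at 0. Erythroid and platelet genes summed to at most 10.4, with Epor, the erythropoietin receptor gene, lower in A at no more than 0.0655 CPM, a call lost without the A library titled CD40 or CpG, the B library titled LPS, or the C library titled CD40 or CpG and not tested at a minimum of 1 CPM, and neutrophil and mast cell genes to at most 1.18 in any library, with S100a8, S100a9 and Ly6g at 0. The part of other cells in the differences above was not tested beyond these values. In these bulk libraries, fewer cells of a type and less RNA per cell cannot be told apart.

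Across libraries, the share of counts held by the 100 most abundant genes was 23.5% ± 0.564 in A, 27.0% ± 0.323 in B and 25.5% ± 0.783 in C (SD, n = 3 each). The 3 A libraries were lower than all 6 others, with an exact two-sided permutation p of 0.0119, the smallest that 84 arrangements allow, and 0.0595 after adjustment over the 5 measures. Total counts (p = 0.964) and genes detected (p = 0.857) gave no separation of A from the other letters by the same exact test.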

How the data were processed

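Poly(A)-selected RNA was sequenced with a strand-aware kit, per the series' design text. The authors deposited a table of unnormalised counts for 54838 Ensembl genes. Per the submitters' processing notes, the tools were STAR 2.7.10a, featureCounts 2.0.6 and DESeq2, on mm10/GRCm38. The annotation release, strand setting and handling of multimapping reads are not given in the sources used here. GENCODE M21 named 54809 of the genes.

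The 9 activated libraries were fitted in R 4.3.3 with edgeR 4.0.16 (filterByExpr, TMM, glmQLFit robust, glmQLFTest, two-sided) with terms for letter and titled stimulus, leaving 4 residual degrees of freedom, and p-values were Benjamini-Hochberg adjusted over 15727 genes. SE is the log2 fold change over the square root of F. CPM uses TMM-adjusted library sizes, and values of naive and GC libraries are on the same scale. Named genes are the first 15 called genes on each side by the smaller of both log2 differences, with a mean of at least 5 CPM on the higher side (A, or each of B and C) and without pseudogenes, immunoglobulin segments and unnamed products, plus Fcer2a, Aire, up to 4 called genes per list and its best-known gene. Other list genes were named after their values were seen, and some genes the rule selects are not reported here. Shares of counts were compared by exact permutation. Depth makes counting error small except near 0 counts, where the bounds cover counting error only, since reads carry no molecular identifiers. The members and lists were chosen with earlier results of these data known. The code was tested on simulated data. Alternatives were no block, other normalisation and filters, DESeq2 1.42.0, all 15 libraries, a 2-fold minimum and leaving out each library. Pairs of libraries within a letter differed by more than sampling noise (chi-square per degree of freedom 9.34 to 34.6). Mitochondrial genes (37) had 0 counts and were not analysed here.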

Additional observations from a re-analysis of the deposited data

How the results depend on the processing

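Without the replicate block for titled stimulus, A differed from both letters for 807 higher genes and 591 lower ones, 803 and 582 of them among the original calls, and A against B, A against C and B against C gave 4573, 3381 and 5198 calls. Deviations of libraries with the same titled stimulus correlated at 0.000362 to 0.0644 across letters, against -0.0573 to 0.0208 for different stimuli, and 8 of 9 libraries correlated best with their own stimulus. Fitting all 15 libraries without the block gave 119 higher and 78 lower, and 986, 611 and 1181 calls in the 3 contrasts; the cause was not tested. A 2-fold minimum gave 180 and 179, and 1076, 1004 and 1247 calls. Leaving out each activated library gave 659 to 829 higher and 489 to 651 lower, and 3730 to 5373, 2788 to 3588 and 4263 to 5502 calls. DESeq2's Wald test gave 862 and 697, its size factors in edgeR 866 and 696, leaving out immunoglobulin genes 848 and 709, no filter on low counts 891 and 635, and at least 1 CPM in 3 libraries 897 and 688. For the 31 named genes, 977 of 992 values under 16 settings kept their direction and side of the threshold, 15 missed the threshold, all in the fit of all 15 libraries, and 0 changed direction. Depth limits what can be said of genes near 0 counts such as Il10.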

Other observations

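Families chosen after their values were seen add to the picture of A, and their counts are descriptions only. Over all genes tested 5.6% were higher and 4.23% lower. Many calls of these families were lost in the fit of all 15 libraries, among them those of Fcamr, Fcgr3, Il5ra, Il2ra, Csf3r and Gbp7. Of 13 tested Fc receptors and Fc receptor-like proteins 2 were higher in A than in both letters and 7 lower. Fcer2a was higher, as was Fcamr, which encodes a receptor for IgA and IgM, at 5.51, 4.98 and 9.3 CPM under A, 1.86, 2.13 and 1.77 under B and 1.62, 1.38 and 1.18 under C. The IgG receptor genes went the other way: Fcgr3 stood at 0.892, 0.673 and 0.197 under A, 2.96, 3.78 and 2.37 under B and 5.32, 7.5 and 4.29 under C. Fcgrt, which encodes the neonatal Fc receptor that recycles IgG, stood at 1.6, 1.92 and 1.7, 10.2, 6.86 and 7.85 and 7.09, 7.44 and 9.8. Of 25 tested interleukin and colony-stimulating factor receptor genes 3 were higher and 9 lower. Il5ra, the interleukin 5 receptor chain, was higher, at 711, 683 and 816 under A, 351, 320.0 and 410.5 under B and 303, 341 and 389.8 under C, while Csf2rb, with which it forms the receptor, was lower. Il2ra, the alpha chain of the interleukin 2 receptor, was lower, at 80.4, 70.2 and 74.8, 179, 190.2 and 176 and 102, 120.1 and 117, as was Csf3r at 4.58, 3.77 and 4.78, 29.9, 23.2 and 27.9 and 15.4, 13.7 and 17.5.

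Of 12 tested Kruppel-like factors 4 were higher and 0 lower. Klf2 and Klf11 among them lost the call in the fit of all 15 libraries. Klf3 stood at 50.3, 51.2 and 46.3 CPM under A, 15.1, 18 and 15.5 under B and 20.2, 25.3 and 22.9 under C, and Klf4, which restrains B cell division, at 4.06, 3.77 and 4.85, 0.882, 0.954 and 0.644 and 0.308, 0.615 and 0.606, far below the naive range of 60.4 to 200.2. Of 10 tested guanylate-binding protein genes 5 were lower and 1 higher, with Gbp3 at 27.7, 26 and 31.8 under A, 104, 107 and 104 under B and 92.4, 90.02 and 95.7 under C and Gbp7 at 18.7, 19.7 and 14.6, 58.5, 63.3 and 59.4 and 89.8, 70.8 and 88.9. The type I interferon gene Irf7 separated C from both A and B, whereas these 5 were lower in A than in both. Of 20 tested semaphorins and plexins 0 were higher and 5 lower, with Sema3b at 12, 11.2 and 14.3 under A, 177, 205 and 213 under B and 62.3, 84 and 70.01 under C. The other lower genes, Plxnb2, Plxnd1, Sema4a and Sema6d, lost the call in the fit of all 15 libraries.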
